A study of Mus musculus with 38 samples.

Results

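Strong promoter peaks were the ATAC-seq peaks that the authors had annotated as promoter-TSS, meaning at or just around the start of a transcript, and that were chosen by a mean signal over both treatments (Conc, the log2 of the mean normalised read number in the peak) of 7 or more. By that rule 5753 of 270806 peaks in mouse cortical collecting duct were strong promoter peaks, or 2.12% of all peaks and 31.1% of the 18508 promoter-TSS peaks. They lay at 5540 named genes, of which 5361 had 1 such peak, 160 had 2 and 19 had 3, while 15 peaks carried a number in place of a gene name. Of these genes, 5227 were protein-coding, 233 were lncRNAs and 48 were miRNAs. The peaks were selected on these signal values, so Conc, the signal of each treatment and the deposited fold change between treatments are given as a description without a test.

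ATAC-seq cuts DNA where it is not wrapped in nucleosomes, so a peak marks open chromatin. Promoters of genes active in most cells usually lie in CpG islands, stretches rich in CG dinucleotides that stay free of nucleosomes and bind general activators such as SP1, NFY, NRF1 and ETS factors. In the principal cells of the collecting duct, vasopressin binds the V2 receptor, raises cAMP and activates protein kinase A, which moves the water channel AQP2 to the apical membrane and raises the amount of Aqp2 mRNA. Intercalated cells, the other main cell type of this segment, secrete acid or base.

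The ducts had been microdissected from kidneys of C57BL/6 mice whose genotype group was WT. Mice had been infused for 5 days with dDAVP, a synthetic V2 receptor agonist also called desmopressin, or with saline. ATAC-seq covered 3 dDAVP and 3 saline libraries, each made from several dissected ducts lysed together, and RNA-seq covered 4 dDAVP and 4 saline libraries. A separate RNA-seq table held 4 MT and 4 WT units of 3 libraries each, with MT for mutation of β-catenin at S552. All 24 of those libraries were labelled as dDAVP-treated and C57BL/6, the titles alone separated MT from WT, and the table's name said it was without vasopressin. dDAVP RNA-seq library 4 had a title with 2 different numbers. The labels gave neither age nor sex and did not tie a number to an animal, so p-values measure the spread between these samples, which may be technical. The dDAVP RNA-seq table listed only genes whose TPM (a transcript level scaled for length and library total) was above 10 in every library. The ATAC-seq table gave group means, so its values have no SD, and the depth of every library was unknown.

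To show the sequence at such peaks, the 250 bases before the annotated start are printed for 8 of the named genes: Sp1 and Atp1b1 had some of the highest signals, Aqp2, Aqp3, Ldha and Id2 differed in RNA between treatments, and Zfp367 and Myo1c held the peaks with the lowest deposited fold changes. Sequences are from RefSeq on GRCm38.p6, the same build as mm10, and are written 5′ to 3′ on the strand of the gene, with the start just after the last base. For 7 of the 8 the whole window lay in the peak, and for Myo1c its first 130 bases lay outside it. The windows were chr15:102406066-102406315 (plus strand) for Sp1, chr1:164458356-164458605 (minus) for Atp1b1, chr15:99578806-99579055 (plus) for Aqp2, chr4:41098184-41098433 (minus) for Aqp3, chr7:46845554-46845803 (plus) for Ldha, chr12:25096093-25096342 (minus) for Id2, chr13:64152374-64152623 (minus) for Zfp367 and chr11:75650269-75650518 (plus) for Myo1c. Capitals mark matches on either strand to 12 motifs. For general promoter factors, these were the GC box (letters GGGCGG), the CCAAT box and the TATA box (letters TATAAA). For ETS factors the letters were CCGGAAG, for NRF1 GCATGCGC, for YY1 AAGATGGC and for ZBTB33 CTCGCGAG. The cAMP response element (CRE) was searched as TGACGTCA, the E box as CACGTG and the AP-1 element as TGANTCA. The GATA factors were searched by AGATAA and GRHL factors by AACCGGTT.
Sp1: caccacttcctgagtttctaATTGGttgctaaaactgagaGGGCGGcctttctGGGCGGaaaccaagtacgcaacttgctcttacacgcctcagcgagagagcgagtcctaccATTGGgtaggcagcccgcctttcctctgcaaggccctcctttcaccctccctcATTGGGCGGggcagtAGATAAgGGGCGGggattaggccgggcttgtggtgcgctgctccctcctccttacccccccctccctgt
Atp1b1: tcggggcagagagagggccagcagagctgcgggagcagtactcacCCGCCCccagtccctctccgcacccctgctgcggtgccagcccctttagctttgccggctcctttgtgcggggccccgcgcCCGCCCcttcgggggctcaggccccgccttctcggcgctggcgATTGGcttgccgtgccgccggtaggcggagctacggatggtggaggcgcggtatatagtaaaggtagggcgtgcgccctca
Aqp2: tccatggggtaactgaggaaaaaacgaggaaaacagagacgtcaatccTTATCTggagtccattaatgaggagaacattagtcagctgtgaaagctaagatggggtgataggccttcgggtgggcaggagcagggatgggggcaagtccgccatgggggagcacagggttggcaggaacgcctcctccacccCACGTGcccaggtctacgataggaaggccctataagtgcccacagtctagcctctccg
Aqp3: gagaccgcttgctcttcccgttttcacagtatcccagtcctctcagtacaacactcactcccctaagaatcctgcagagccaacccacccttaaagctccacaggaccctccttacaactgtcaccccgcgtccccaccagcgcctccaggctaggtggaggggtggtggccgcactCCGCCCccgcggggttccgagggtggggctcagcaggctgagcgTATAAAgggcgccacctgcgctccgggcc
Ldha: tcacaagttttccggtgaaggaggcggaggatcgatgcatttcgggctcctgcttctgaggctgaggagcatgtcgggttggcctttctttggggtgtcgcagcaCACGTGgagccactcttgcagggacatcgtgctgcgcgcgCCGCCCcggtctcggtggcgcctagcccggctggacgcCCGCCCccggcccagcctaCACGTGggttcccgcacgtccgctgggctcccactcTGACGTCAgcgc
Id2: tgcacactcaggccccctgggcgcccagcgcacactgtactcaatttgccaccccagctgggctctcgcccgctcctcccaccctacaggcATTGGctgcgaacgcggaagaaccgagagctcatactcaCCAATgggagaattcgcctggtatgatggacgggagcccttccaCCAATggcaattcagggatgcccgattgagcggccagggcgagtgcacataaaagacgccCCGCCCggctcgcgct
Zfp367: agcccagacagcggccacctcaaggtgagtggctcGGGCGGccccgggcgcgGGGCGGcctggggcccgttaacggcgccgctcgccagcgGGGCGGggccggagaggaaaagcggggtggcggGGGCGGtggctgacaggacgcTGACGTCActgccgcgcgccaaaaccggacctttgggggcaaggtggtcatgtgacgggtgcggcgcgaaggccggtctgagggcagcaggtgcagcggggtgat
Myo1c: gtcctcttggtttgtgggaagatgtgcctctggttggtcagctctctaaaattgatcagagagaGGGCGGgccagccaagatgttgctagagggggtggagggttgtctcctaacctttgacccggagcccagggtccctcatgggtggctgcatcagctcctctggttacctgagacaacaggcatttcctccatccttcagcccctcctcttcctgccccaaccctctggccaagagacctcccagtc

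The Sp1 window, upstream of the gene for the GC-box binding factor itself, held 4 GC boxes, 3 CCAAT boxes and 1 GATA match, and 1 CCAAT box overlapped a GC box. Atp1b1, which encodes the β1 subunit of the sodium pump, had 2 GC boxes and 1 CCAAT box. The window of Aqp2, the vasopressin-regulated water channel, held an E box 58 bases before the start and a GATA match 202 bases before it, with no GC box. Aqp3, the basolateral water channel, had a TATA box 29 bases before its start and 1 GC box. Ldha, a subunit of lactate dehydrogenase, had 2 GC boxes, 2 E boxes and a CRE that began 12 bases before the start. Id2, an inhibitor of basic helix-loop-helix factors, held 3 CCAAT boxes and 1 GC box. Zfp367, a zinc finger gene, held 4 GC boxes and 1 CRE, and the window of Myo1c, an unconventional myosin, held 1 GC box, in the stretch outside the peak. The ratio of observed to expected CpG was 0.932 in the Zfp367 window and 0.886 in the Ldha window, against 0.424 in the Aqp2 window and 0.0968 in the Myo1c window. A match describes letters in these windows and does not show that a factor was bound.

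Signal in strong promoter peaks was lower in dDAVP ducts than in saline ducts at each of the 5753 peaks, by a median of 0.62 on the log2 scale. The median signal was 7.96 in dDAVP ducts and 8.60 in saline ducts, with quartiles of 7.38 and 8.58 in dDAVP ducts and 8.03 and 9.17 in saline ducts. Conc had a median of 8.31 and reached 11.18. The difference ran between -1.23 and -0.01. Its median over all 270806 peaks was also below 0, at -0.28. Signal was likewise lower in dDAVP ducts at 12015 of the 12151 peaks of Conc 7 or more with another annotation, and at 170474 of all peaks. The fold change in the authors' deposited table, dDAVP over saline on the log2 scale and here called Fold, had a median of -0.50 in strong promoter peaks and ran between -1.11 and 0.10. Over the table it lay a median of 0.12 above the plain difference of both signals, and 5 strong promoter peaks had a Fold above 0 while their signal was lower in dDAVP ducts.

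At an adjusted p below 0.05 in the authors' deposited table, 3767 strong promoter peaks (65.5%) were called lower in dDAVP ducts and 0 were called higher. Over all peaks the same call was made at 5.98% as lower and at 0.846% as higher. Conc comes from the same contrast, so nothing is read from these shares. Weaker promoter peaks, the other 12755 promoter-TSS peaks, had median signals of 2.82 in dDAVP ducts and 3.29 in saline ducts and a median Fold of -0.45 in the deposited table, with 7.89% called lower and 31 called higher. The 12151 peaks of Conc 7 or more with another annotation had a median Fold of -0.48, with 47.6% called lower and 15 called higher. Set against the median Fold of all peaks (-0.17), the median was -0.33 in strong promoter peaks, -0.28 in weaker promoter peaks and -0.31 in strong peaks of another annotation. By that measure 5700 strong promoter peaks (99.1%) lay below the median of the table, as did 92.8% of strong peaks of another annotation and 68% of weaker promoter peaks.

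**Figure D1:**
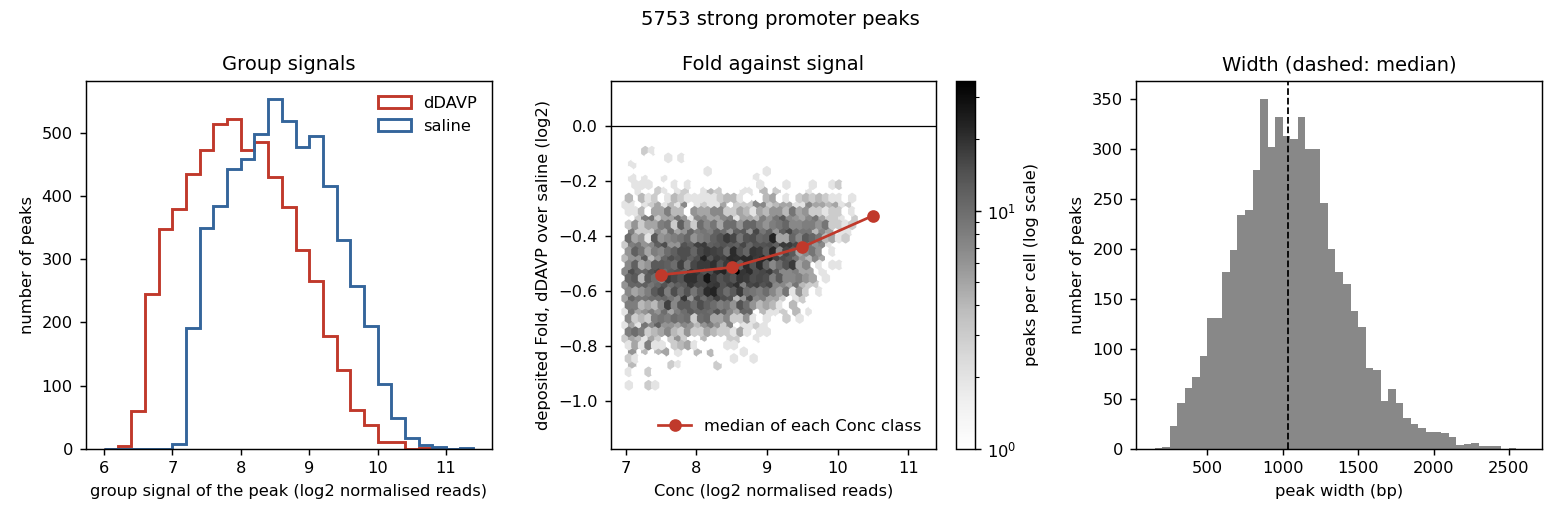
The 5753 strong promoter peaks by group signal (left, number of peaks per step of log2 normalised reads, dDAVP and saline), by deposited Fold against Conc (middle, shade for peaks per cell on a log scale on which a cell of 1 peak is white, points for the median of each Conc class) and by width in bp (right, dashed line at the median). The median signals were 7.96 in dDAVP ducts and 8.60 in saline ducts, the class medians of Fold lay between -0.54 and -0.33, and the median width was 1032 bp.

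Fold and calls are given by signal class as a description, since both come from the contrast that chose the peaks. The 2037 peaks with Conc between 7 and 8 had a median deposited Fold of -0.54 and 52.1% called lower. The 2481 peaks between 8 and 9 had -0.51 and 67.1%, and the 1162 peaks between 9 and 10 had -0.44 and 83.7%. The 73 strongest peaks, at 10 or more, had -0.33 and 94.5%. Spearman's rho between Conc and Fold was 0.28 over all of them, which share libraries and scaling.

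Strong promoter peaks were broad. Their median width was 1032 bp, with quartiles of 804 and 1267 bp and a range of 197 to 2519 bp, against 178 bp for weaker promoter peaks and 1009 bp for strong peaks of another annotation. Only 298 of them (5.18%) were narrower than 500 bp, against 85.7% of weaker promoter peaks. Conc counts reads over the whole peak and so grows with width, with a Spearman's rho of 0.44 between them. Signal per kb, computed from the same Conc that separates the classes, had a median of 8.36 on the log2 scale in strong promoter peaks, against 5.51 in weaker ones. Narrow strong peaks were the densest: signal per kb had a median of 8.93 in those under 500 bp and 8.16 in the 600 widest, of 1500 bp or more. The share called lower in the deposited table was 44.6% in the narrow peaks and 90.2% in the widest, at median Folds of -0.51 and -0.55.

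Most strong promoter peaks held a transcript start. Of the 5593 on chromosomes in the RefSeq table, 4551 (81.4%) contained an annotated start, against 22.4% of weaker promoter peaks, and 4387 contained the start of the gene they were named for. In the 3513 peaks with starts on 1 strand, the centre lay a median of 32 bp upstream of the start. Starts on both strands, as at divergent gene pairs, were found in 1038 strong promoter peaks (18.6%) and in 1.30% of weaker ones. A wider peak has more room for starts, and median widths were 1032 bp in strong promoter peaks and 178 bp in weaker ones. The part of width in these contrasts was not tested. Peaks with starts on both strands had a median Conc of 8.59 and a width of 1128 bp, against 8.31 and 1020 bp for those with starts on 1 strand. Their median deposited Folds were -0.51 and -0.50.

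The promoter-TSS annotation did not reach every strong peak at a start. Of 32851 annotated starts, 6506 (19.8%) lay in a strong promoter peak and 3837 (11.7%) in a peak just as strong but annotated otherwise, 1558 as intron, 996 as 5′ UTR and 770 as exon. Another 17478 starts (53.2%) lay in no peak. Strong promoter peaks thus covered 62.9% of the 10343 starts found in strong peaks.

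The strongest promoter peak, at Pisd-ps3 on an unplaced contig, had signals of 10.94 in dDAVP ducts and 11.38 in saline ducts. The next was at Sp1 (chr15:102405208-102406968 on mm10), with 10.62 in dDAVP ducts and 11.00 in saline ducts over 1761 bp. Egr1, an immediate early zinc finger factor, followed with 10.34 in dDAVP ducts and 10.95 in saline ducts over 2145 bp. These 3 were the highest signals of any strong promoter peak. Others of the 10 highest were at 4932412D23Rik, Dnpep, Bhlhe40, Atp1b1, Mir1938, Aph1b and Fbrs, with Conc between 10.45 and 10.49. The peak at Bhlhe40, a circadian repressor, had the lowest deposited Fold of these 10, at -0.69. At Atp1b1 (chr1:164457918-164459173) the signal was 10.22 in dDAVP ducts and 10.69 in saline ducts, and the peak also held the start of Gm32391. The peak named for Mir1938 held the starts of Gm7008 and Ifrd1. Names therefore do not always give the only gene at a peak.

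Among peaks called lower, the lowest deposited Fold was -1.11, at Zfp367 (chr13:64152192-64152725), with signals of 6.39 in dDAVP ducts and 7.62 in saline ducts. At Myo1c (chr11:75650399-75650718) they were 6.73 in dDAVP ducts and 7.94 in saline ducts, for a Fold of -1.09. The others of the 10 lowest were Hivep1, Hmga1, Fam229a, Zbtb2, Fam168b, Purb, Otx1 and Rnf145, with deposited Folds between -1.02 and -0.95. All but Fam168b had a Conc under 8, near the lower end of the rule. The 5 Folds above 0, picked out after their values were seen, were at Inpp4b (0.10), Wdr17 (0.06), Tent5a (0.02), Aldh1a1 (0.02) and Akap1 (0.01) in the deposited table, and none was called. Just inside the threshold of 7, Atp6v0c (7.000), Whrn, Kif1c, Prdm1 and Bub1 (7.001 each) had deposited Folds between -0.94 and -0.44. Just outside it, Arf5 (7.000 after rounding), 1700028I16Rik, Pdzd2, Sirt4 and Arhgef25 had Folds between -0.85 and -0.41. The widest peaks were at Kcnd3 (2519 bp), Vars, Elf2, Pitpnm2 and Lpin2, and the narrowest at Gse1 (197 bp), 9530052E02Rik, Hoxb5, Sgk1 and Adm.

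The 179 genes with several strong promoter peaks spanned a median of 3.25 kb between their outer peaks. Ranked by Conc, their strongest and weakest peaks had median Conc of 8.63 and 7.49, a gap that the ranking sets, and median deposited Folds of -0.48 and -0.53. The weakest peak had the lower Fold in 107 of the 179. Zfp367 and Myo1c are given because they hold the lowest Folds of all strong promoter peaks. At Zfp367 the strong peak had a Conc of 8.96 and a Fold of -0.36, while its weak peak had 7.13 and -1.11. At Myo1c the strongest and weakest peaks, of Conc 7.81 and 7.46, had deposited Folds of -0.32 and -1.09. Sgk1, the aldosterone-induced kinase, had 3 strong promoter peaks with Conc between 7.02 and 9.20, and the glucocorticoid receptor gene Nr3c1 also had 3.

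Of all 21900 protein-coding RefSeq genes, 23.9% had a strong promoter peak, and 65.5% of strong promoter peaks were called lower. The first share covers genes whatever their RNA level, while most listed duct and housekeeping genes were expressed. Among 12883 entries above 1 TPM in all 4 WT units, 4986 had a strong promoter peak. So did 2294 of the 5035 genes in the dDAVP RNA-seq table. These are the shares to set beside each list. Of 16 principal cell transport and hormone genes, 12 had a strong promoter peak, and 7 of these peaks were called lower in the authors' deposited table. Atp1b1 had the highest Conc (10.47), followed by Nr3c2, the mineralocorticoid receptor (9.41), Sgk1 (9.20) and Aqp3 (8.98). Aqp2 had 8.90, with signals of 8.72 in dDAVP ducts and 9.06 in saline ducts and a deposited Fold of -0.22 that was not called. At Aqp3 the signals were 8.53 in dDAVP ducts and 9.33 in saline ducts, with a Fold of -0.69 that was called lower. The V2 receptor gene Avpr2 had 7.72 and the epithelial sodium channel subunit Scnn1a 7.51. The strongest promoter-TSS peaks of Nedd4l (6.62), Aqp4 (5.59) and Hsd11b2 (5.38) were among those that fell short of 7.

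Of 18 intercalated cell genes, 7 had a strong promoter peak, led by the ammonia transporter Rhbg (8.27), the proton pump subunit Atp6v1b1 (8.23) and Rhcg (8.19), and 4 were called lower in the deposited table. Foxi1, the master factor of these cells, Slc26a4 (pendrin), Car15 and Kit had their starts in strong peaks of another annotation. Among 21 collecting duct transcription factors, 11 had a strong promoter peak, with Hoxd8 (9.70), Pax2 (9.496), Elf3 (9.48) and Ehf (9.14) at the top. Among 27 genes of cAMP signalling, 15 did, led by Creb1 (9.58), Pde4c (9.44), Ep300 (9.44) and Akap8 (9.39), and 13 were called lower in the deposited table. Of 20 genes that move AQP2 vesicles, 10 did, with Hspa8 highest (9.79).

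Genes used by every cell also had strong promoter peaks. A strong promoter peak was present at 21 of 41 cytosolic ribosomal protein genes (Rps19 highest, 9.75), 21 of 40 oxidative phosphorylation genes (Uqcrq, 9.53), 15 of 28 proteasome genes (Psmb3, 8.60) and 16 of 28 splicing factors (Srsf2, 9.71). All 16 splicing factor peaks were called lower in the authors' deposited table, as were 17 of 21 at ribosomal protein genes, 13 of 21 at oxidative phosphorylation genes and 12 of 15 at proteasome genes, beside 65.5% of all strong promoter peaks. Heat shock and chaperone genes had 17 of 22 (Dnajb1, 10.1), immediate early genes 17 of 26 (Egr1, 10.68), Wnt pathway genes 17 of 32 (Jup, 9.72) and cell cycle genes 17 of 31 (Pcna, 9.39). The start of Ctnnb1, which encodes β-catenin, lay in a strong peak of another annotation. Median deposited Folds of these lists lay between -0.56 for splicing factors and -0.46 for collecting duct transcription factors.

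**Figure D2:**
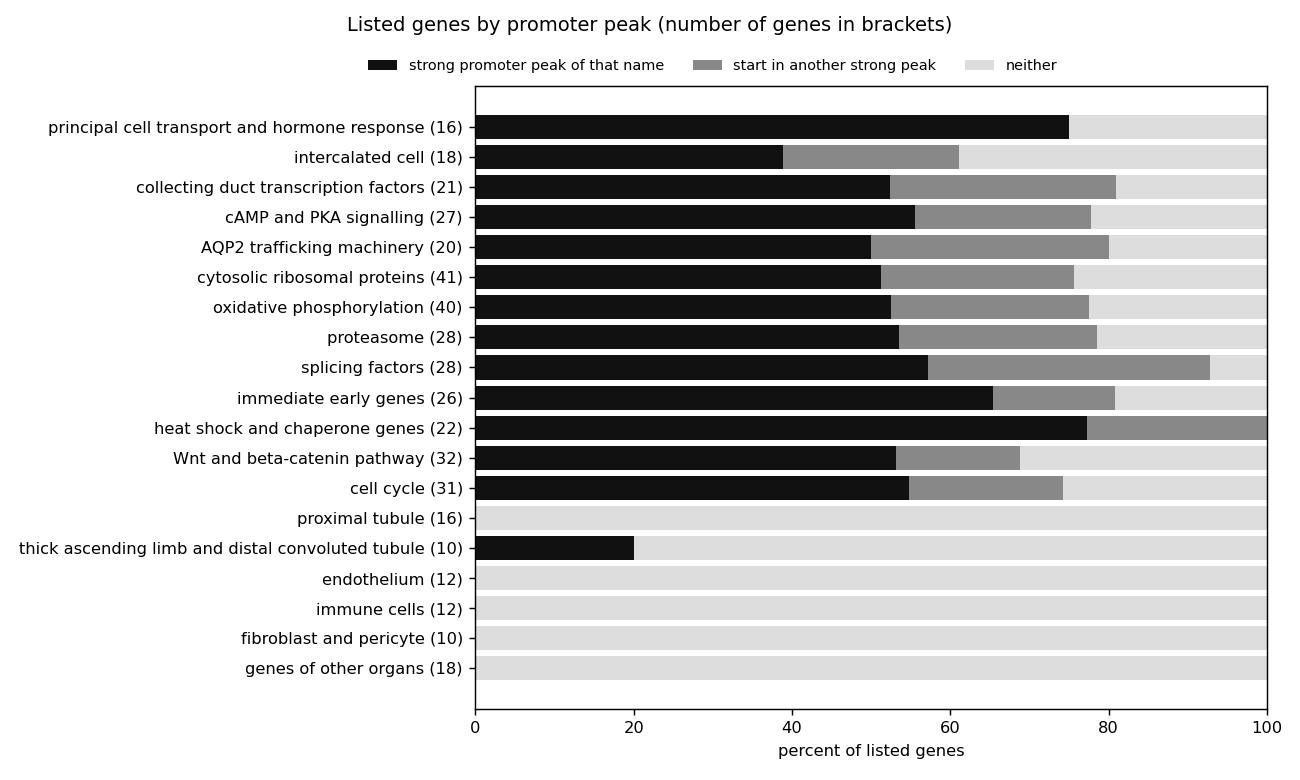
Percent of the genes in each list (number of genes in brackets) that had a strong promoter peak of their name, that had their start in another strong peak, or neither. The first share was 75% for principal cell genes and 38.9% for intercalated cell genes, and 0% for proximal tubule, endothelium, immune cells, fibroblasts and genes of other organs.

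Strong promoter peaks were found at 0 of 16 proximal tubule markers, 0 of 12 endothelial, 0 of 12 immune, 0 of 10 fibroblast and 0 of 18 genes of other organs. Among 10 thick ascending limb and distal convoluted tubule markers, Egf (7.73) and Calb1 (7.02) had one. In RNA, the 6 listed proximal tubule markers summed to 1196 to 10839 TPM in dDAVP libraries and 506 to 9955 TPM in saline libraries, highest in dDAVP library 4 and saline library 3. The summed level of principal cell genes was 72539 to 95983 TPM in dDAVP libraries and 34382 to 38639 TPM in saline libraries. Aqp2 alone was the largest part of that sum, with 51774 to 72251 TPM in dDAVP libraries and 18074 to 21874 TPM in saline libraries. In saline library 4 it made up 18074 of 38639 TPM. Between treatments the sum therefore mainly follows this 1 gene. Intercalated cell genes summed to 13541 to 17416 TPM in dDAVP libraries and 11223 to 14479 TPM in saline libraries. Gene by gene, however, most had lower RNA in dDAVP ducts. Log2 fold changes were below 0 in 6 of the 7 with a strong promoter peak and in 9 of the other 11. Over the table they were below 0 at 57.2% of genes with a strong promoter peak and at 56.4% of all 5035 genes. In these bulk samples, fewer cells of a type and less RNA per cell cannot be told apart, and the part of other cells in the RNA results was not tested.

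Genes with a strong promoter peak were mostly expressed. In the 4 WT units their median level was 24.5 TPM, with quartiles of 8.37 and 63.3, and 90.6% were above 1 TPM in all 4. The median was 2.85 TPM for genes whose best promoter peak was weaker, with 54.8% above 1 TPM, and 0.0475 TPM for genes without a promoter peak, with 9.60% above 1 TPM. This last class held 43041 of 55416 entries, and 69.2% of all entries matched a RefSeq symbol. MT units gave a median of 24.4 TPM for genes with a strong promoter peak. By signal, the WT median was 17.5 TPM for Conc between 7 and 8, 26.3 between 8 and 9, 30.8 between 9 and 10 and 36.7 at 10 or more. Within these genes the relation was loose, with a Spearman's rho of 0.16 between Conc and WT TPM over 5502 genes that share libraries. The dDAVP RNA-seq table, limited to genes above 10 TPM, showed no such gradient. Its saline medians were 70.9 TPM for genes with a strong promoter peak, 73.1 TPM with a weaker one and 63.5 TPM with none. Spearman's rho between Conc and saline TPM was 0.05 over 2294 genes with a strong promoter peak. A strong promoter did not go with a high level at every gene: Mki67, a proliferation marker, had a Conc of 8.37 and 0.556 ± 0.274 TPM (SD, n = 4 WT units), and Sp1 had 6.79 ± 0.887 TPM. In the dDAVP RNA-seq table the highest saline levels among these genes were those of Aqp2, the nuclear lncRNA Malat1, Ldhb, Atp5b and Aldoa, and the lowest those of Smyd4, Armc10, Crkl, Tox3 and Eps15l1. Malat1 averaged 9850 ± 1443 TPM in dDAVP libraries and 9461 ± 4566 TPM in saline libraries, and Eps15l1 averaged 12.4 ± 1.25 TPM in dDAVP libraries and 11.4 ± 1.56 TPM in saline libraries (SD, n = 4 each). Of these 10 genes, only Aqp2 passed the test between treatments. Genes whose start lay in a strong peak of another annotation had a WT median of 23.3 TPM, against 23.4 TPM for those with the start in a strong promoter peak.

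In the dDAVP RNA-seq table, 2294 genes with a strong promoter peak were tested and 16 were called, 11 higher and 5 lower in dDAVP ducts, by limma at a Benjamini-Hochberg adjusted p below 0.05 over all genes. That is 0.697% of them, beside 0.695% of all 5035 genes, so genes with a strong promoter peak were called about as often as the table as a whole. The median log2 fold change was -0.07 for genes with a strong promoter peak and -0.06 for all genes. The dDAVP and saline libraries did not overlap in any of the 16, but a test on these same libraries picked them, so this adds no support. Groups also did not overlap at genes that were not called, such as Rpl13, Rps16 and Sdhc (limma adjusted p = 0.562, 0.469 and 0.448). How common this was over all 5035 genes is not given here.

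Aqp2 had 51774, 58027, 72251 and 61434 TPM in dDAVP libraries, against 20212, 21874, 20524 and 18074 TPM in saline libraries. Every dDAVP library was above every saline library, and the rise was 1.59 ± 0.176 on the log2 scale (SE), or 3.00-fold, with a limma adjusted p of 0.0028. Aqp3 had 7310, 8123, 8381 and 7116 TPM in dDAVP libraries, against 3602, 3793, 2900 and 5205 TPM in saline libraries. It rose by 1.03 ± 0.181 (limma adjusted p = 0.0241). The dDAVP and saline libraries did not overlap for either water channel, which adds no support beyond the test.

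Crem, which encodes cAMP-responsive activators and repressors, showed the largest rise. It had 329.6, 375, 403 and 315.1 TPM in dDAVP libraries, against 49.8, 111.7, 49.8 and 34.0 TPM in saline libraries, a log2 rise of 2.65 ± 0.309 (limma adjusted p = 0.0028). Abhd3, a phospholipase gene, had 402.6, 566, 467.6 and 415.6 TPM in dDAVP libraries, against 63.9, 71.5, 75.3 and 99.0 TPM in saline libraries, and rose by 2.57 ± 0.192 (limma adjusted p = 7.22e-05). Scg5, a secretory granule chaperone, had 211.9, 261.9, 419.1 and 246.8 TPM in dDAVP libraries, against 49.2, 61.0, 23.8 and 84.6 TPM in saline libraries, and rose by 2.45 ± 0.357 (limma adjusted p = 0.011). These 3 levels differed by more than 5-fold between the group means.

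Atp4a, the catalytic subunit of the gastric-type proton pump, had 573.6, 1157, 1119 and 1113 TPM in dDAVP libraries, against 364.9, 366.4, 319.6 and 189.5 TPM in saline libraries. Its rise was 1.66 ± 0.271 (limma adjusted p = 0.019), and dDAVP library 1 stood well below the other 3. Ldha had 2516, 2725, 3059 and 3144 TPM in dDAVP libraries, against 1228, 1661, 1550 and 1699 TPM in saline libraries, and rose by 0.90 ± 0.150 (limma adjusted p = 0.0208). The other rises were at the mitochondrial arginase Arg2 (2.13), the adaptor gene Dab1 (2.02), Jpt2 (1.08) and the alcohol dehydrogenase Adh1 (0.93).

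Id2 showed the largest fall. It had 186.4, 200.03, 122.7 and 163.4 TPM in dDAVP libraries, against 580.5, 648.1, 400.0 and 648.9 TPM in saline libraries, and fell by 1.75 on the log2 scale (SE 0.211, limma adjusted p = 0.0032). The sodium channel subunit gene Scnn1a had 117.9, 151.9, 164.4 and 120.5 TPM in dDAVP libraries, against 261.6, 270.4, 277.9 and 317.2 TPM in saline libraries, and fell by 1.03 (SE 0.174, limma adjusted p = 0.0215). The other falls were at the transporter gene Slc16a5 (-1.40), Tmem37 (-1.31) and the mitochondrial creatine kinase Ckmt1 (-0.81). The authors' own deposited adjusted p for RNA was 0.688 for Ckmt1 and 0.134 for Tmem37, so neither was below 0.05 by their test. For Id2, Scnn1a and Slc16a5 the authors' adjusted p was 3.23e-10, 1.01e-05 and 1.96e-04. Ckmt1 averaged 794.7 ± 108 TPM in dDAVP libraries and 1387 ± 146 TPM in saline libraries (SD, n = 4 each).

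**Figure D3:**
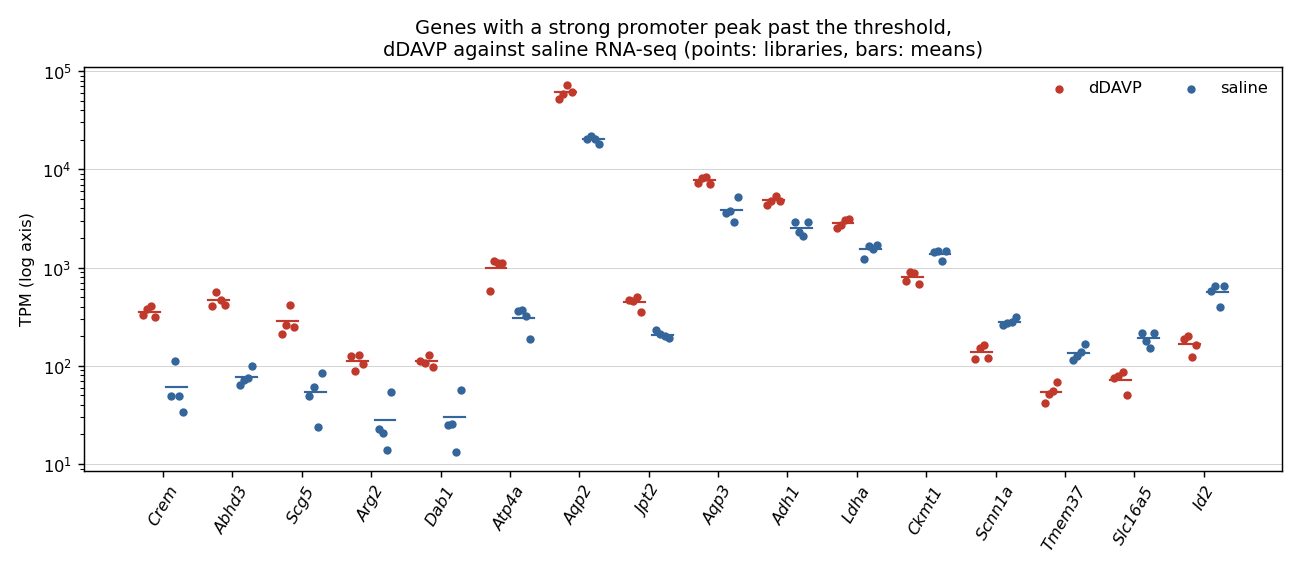
TPM on a log axis of the 16 genes with a strong promoter peak that were called between dDAVP and saline, with a point for each library and a bar for each group mean. In each gene the 4 dDAVP libraries and the 4 saline libraries do not overlap, and the genes were picked by a test on these libraries.

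The promoter peaks of these 16 genes all had a deposited Fold below 0, whichever way the RNA moved. It ran between -0.69 and -0.03 at the 11 genes with higher RNA, of which 5 were called lower in the deposited table. At the 5 genes with lower RNA it ran between -0.75 and -0.46, and 4 were called lower. Of all strong promoter peaks, 65.5% were called lower. With so few genes, nothing is read from the difference between these counts. Over the 2294 genes, Spearman's rho between Fold and the RNA log2 fold change was 0.04. The ATAC-seq and RNA-seq libraries are different samples. Another 19 called genes had no strong promoter peak, and 9 of them had their start in a strong peak of another annotation: Btc, Car12, Car15, Cdk18, Ddit4l, Eva1b, Niban1, Prom1 and Wfdc2.

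Calls depended on the libraries included. Abhd3, Aqp2, Crem and Id2 were called however one library was left out, whereas Ckmt1 kept its call in 1 of 8 such fits and Aqp3, Arg2, Dab1 and Scnn1a in 2. The fold changes moved less than the calls: the one nearest to 0 was -0.73 for Ckmt1 and 1.87 for Arg2, against -0.81 and 2.13 with all 8 libraries. Without dDAVP library 3, 4 genes with a strong promoter peak were called (0.17%, beside 0.14% of all genes). Without saline library 3, 20 were (0.87% beside 0.75%), the 16 among them. Without dDAVP library 1, 7 were called (0.31% beside 0.32%), and without dDAVP library 4, 8 (0.35% beside 0.38%). The counts were 8 without saline library 1 (0.35% beside 0.36%) and 7 without saline library 2 (0.31% beside 0.34%). Without dDAVP library 2, 13 were called (0.57% beside 0.46%), 7 of them among the 16. Without saline library 4, 18 were (0.78% beside 0.93%), 15 of them among the 16.

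Among listed genes, 2 principal cell genes rose (Aqp2 and Aqp3) and 1 fell (Scnn1a) of 12 tested. Avpr2 had 1259, 1264, 1720 and 1559 TPM in dDAVP libraries, against 1004, 769.0, 864.1 and 1178 TPM in saline libraries, with no overlap but a limma adjusted p of 0.199. Of the 7 intercalated cell genes with a strong promoter peak, 0 were called. Their log2 fold changes had a median of -0.66 and were below 0 in 6, beside 57.2% of all genes with a strong promoter peak. Of the other 11 in that list 9 were below 0, beside 56.4% of all genes tested. Car15, a carbonic anhydrase gene among those 11, was called higher (2.31, limma adjusted p = 4.82e-05). Rhbg had 241.7, 381.5, 517.9 and 415.1 TPM in dDAVP libraries, against 623.4, 813.6, 739.2 and 885.7 TPM in saline libraries (limma adjusted p = 0.0769). Slc4a9, an anion exchanger, had 249.2, 403.0, 275.8 and 332.8 TPM in dDAVP libraries, against 737.3, 692.0, 485.7 and 503.1 TPM in saline libraries (limma adjusted p = 0.0758). Neither passed the test although their groups did not overlap. Among cAMP genes 1 of 6 tested rose (Crem). No gene was called among 21 ribosomal protein, 21 oxidative phosphorylation, 15 proteasome, 14 splicing, 15 heat shock, 7 Wnt and 4 cell cycle genes with a strong promoter peak.

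Immediate early genes, which are transcribed soon after a stimulus, varied widely between libraries. The 9 with a strong promoter peak that were listed summed to 1041, 7863, 943.4 and 546.5 TPM in dDAVP libraries, against 3045, 10728, 3749 and 9146 TPM in saline libraries. dDAVP library 2 was the highest dDAVP library for 9 of 9 and lay above saline libraries 1 and 3 in the sum. Fos had 151.9, 1715, 96.8 and 60.03 TPM in dDAVP libraries, against 643.3, 2001, 937.6 and 2076 TPM in saline libraries. With all 8 libraries its log2 fold change was -2.66 (limma adjusted p = 0.26), and 0 of the 9 were called. Without dDAVP library 2, Fos (-3.70, limma adjusted p = 0.00496), Egr1 (-3.73, 0.019), Junb (-3.31, 0.00496), Jun (-2.96, 0.00913), Zfp36 (-3.36, 0.0303) and Ier2 (-2.58, 0.0303) were called lower. That fit was one of those leaving out each library in turn.

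**Figure D4:**
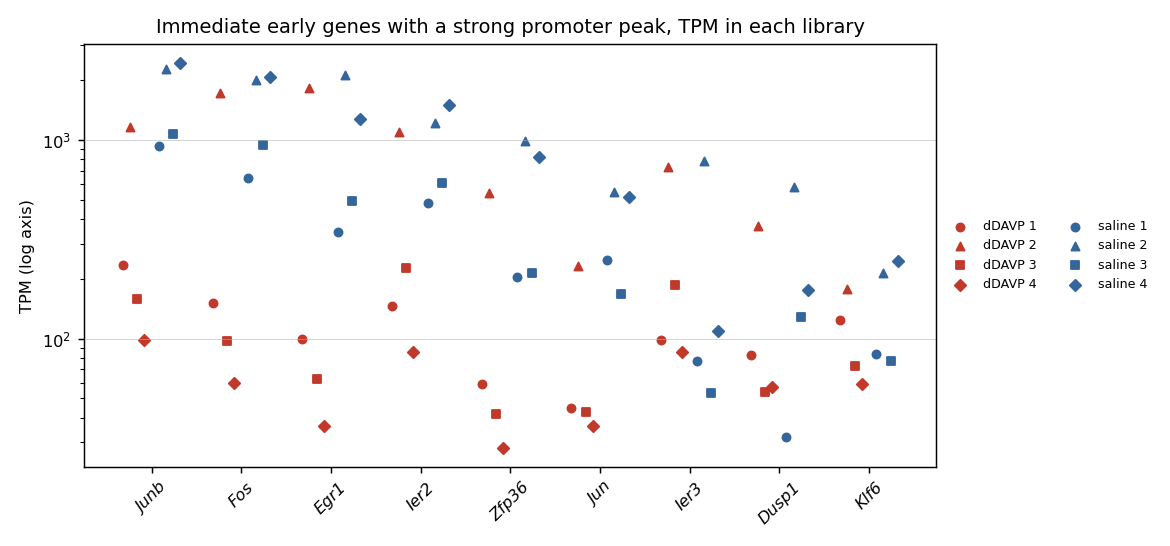
TPM on a log axis of the 9 listed immediate early genes with a strong promoter peak, with 1 symbol for each of the 4 dDAVP and 4 saline libraries. dDAVP library 2 lies above the other 3 dDAVP libraries in 9 of 9 genes.

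Between β-catenin MT and WT units, 0 of 5107 genes with a strong promoter peak were called by limma, beside 0.0% of 15013 genes tested. At an unadjusted p below 0.05 there were 231 (4.52%), against 683 (4.55%) of all genes. The smallest p was at Anp32a, a histone chaperone, with 29.7, 28.6, 26.7 and 21.8 TPM in MT units against 44.3, 48.2, 55.0 and 54.7 TPM in WT units, a log2 difference of -0.90 that did not pass (limma adjusted p = 0.376). MT and WT units did not overlap at Anp32a, which was picked by its p on these units. The labels of this table conflict, as given above, so a direction here rests on the titles.

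The sequence around the start differed between strong and weaker promoters. Windows of 250 bases before to 50 bases after 32851 annotated RefSeq starts were placed by the peak that held the start. CpG-rich windows, with an observed over expected CpG ratio of 0.6 or more, made up 84.1% of starts in strong promoter peaks, 50.4% in weaker promoter peaks, 8.03% in no peak and 35.8% of all. Starts in strong peaks of another annotation had 71.2%. A GC box was found in 74.6% of starts in strong promoter peaks, 49.6% in weaker promoter peaks and 35.7% of all starts. The ETS motif was in 21.6% against 8.86% of all, NRF1 in 5.90% against 2.71%, YY1 in 4.47% against 2.75%, CRE in 3.64% against 1.79%, E box in 10.6% against 7.15% and ZBTB33 in 2.48% against 0.919%. Motifs scarcer than in all starts were the TATA box (3.86% against 13.6%), AP-1 (3.70% against 7.81%) and GATA (3.77% against 11.2%). These shares were not particular to strong promoter peaks. Starts in strong peaks of another annotation had NRF1 in 5.92%, YY1 in 4.72%, CRE in 3.26% and E box in 11.0%. They had a GC box in 66.6%, ETS in 15.3%, ZBTB33 in 1.93%, TATA box in 6.91%, AP-1 in 4.5% and GATA in 5.47%. Weaker promoter peaks had the E box in 9.22%. The CCAAT box differed little, at 40.6% against 37.4%. The median GC content of the windows was 64.3% in strong promoter peaks and 52.7% over all, and its part in the motif shares was not tested.

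Within strong promoter peaks the motifs ran in different directions with signal. The share with a CCAAT box was 33.7% for Conc between 7 and 8, 39.9% between 8 and 9, 50.0% between 9 and 10 and 58.1% at 10 or more, and the share with a GC box was 66.6%, 76.1%, 81.2% and 85.7% over the same steps. The ETS share was 24.4%, 23.2%, 15.5% and 11.4% over those steps. Strong promoter windows with a CCAAT box had a median deposited Fold of -0.47, and those without it -0.53. With a CRE the median Fold was -0.56, against -0.51 without. The 1035 CpG-poor windows, which include that of Aqp2 and that of the Myo1c peak shown above, had a median Fold of -0.46 and 52.0% called lower, against -0.51 and 71.8% for the 5471 CpG-rich windows. Their genes had median WT levels of 24.0 and 25.3 TPM.

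**Figure D5:**
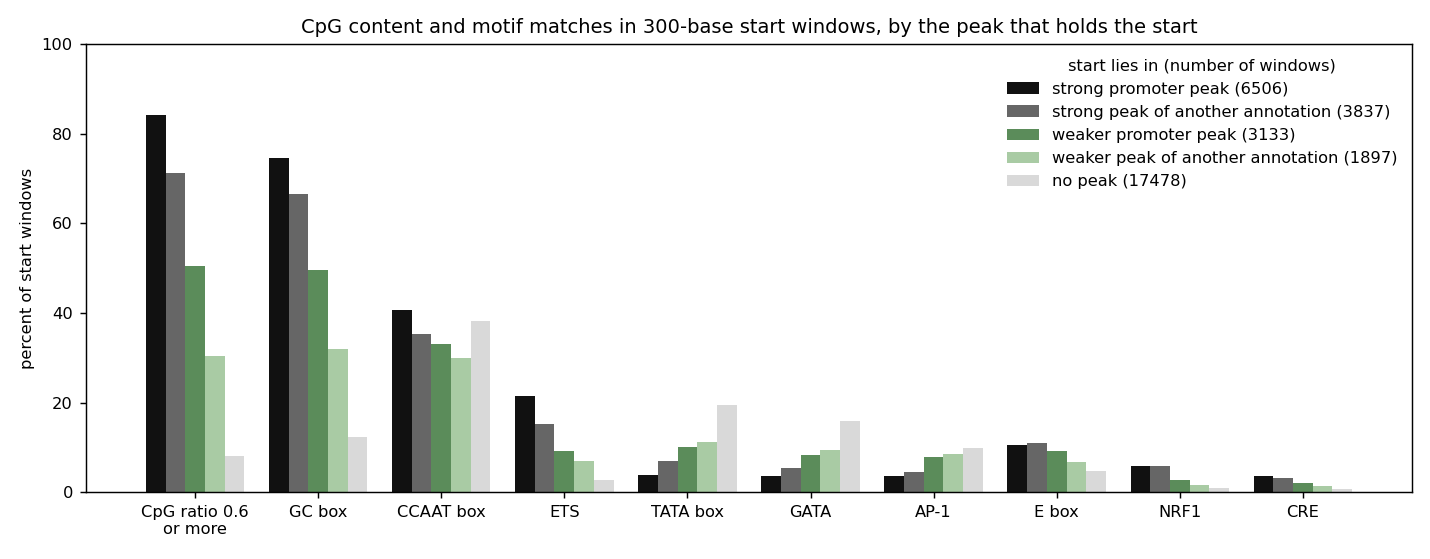
Percent of 300-base RefSeq start windows that are CpG-rich or hold a motif, with a bar for each class of peak that holds the start. CpG-rich windows made up 84.1% of starts in strong promoter peaks, 50.4% in weaker promoter peaks and 8.03% in no peak.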

How the data were processed

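ATAC-seq values were taken from the authors' deposited table of peaks on mm10, which gave log2 group means (Conc), a log2 fold change and p-values. Per the submitters' processing notes, the tools were DiffBind, MACS2, Bowtie2, cutadapt 3.4, deepTools, Picard, SAMtools, bedtools, STAR and RSEM. Their settings were not given in the sources used here. Both RNA-seq tables held TPM deposited by the authors, and TPM keeps no depth. Another 8 per-library columns, log2 copies of the TPM, were not used.

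Each RNA-seq comparison was fitted over its whole table with limma 3.58.1 (eBayes with a trend, R 4.3.3) on log2(TPM + 1), keeping genes that averaged at least 1 TPM. Tests were two-sided, p-values were adjusted by Benjamini-Hochberg, and calls were made below 0.05. Fold changes on this scale understate changes of low genes. In the β-catenin table the 3 libraries of each unit were averaged into 1 replicate. A gene was placed by its promoter-TSS peak of highest Conc. Sequence windows came from RefSeq tables on GRCm38.p6, which held no window for chromosome 18 or unplaced contigs. Python 3.11.15, pandas 2.3.3 and SciPy 1.17.1 were used, and the fit was tested on simulated data.

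Named peaks were the 10 of highest Conc, the 5 on each side of the threshold, the 10 of lowest Fold among those called, the 5 widest and the 5 narrowest, and up to 4 per gene list. Named RNA genes were the 10 largest rises and falls past the threshold and the 5 highest and 5 lowest levels in saline libraries. The members and lists were chosen with earlier results of these data known. Alternatives changed the pseudocount, the TPM minimum, the scaling, the Conc minimum, the peak measure, the replicate block and the libraries included. Placing genes by a RefSeq start was added after seeing the data. Results for some listed genes are not reported here.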

Additional observations from a re-analysis of the deposited data

Results flagged for a closer look

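Among 85 groups of 4 samples examined for the named genes, 8 held a sample whose gap to its nearest neighbour made up more of the whole range than Dixon's 95% critical value, and chance alone flags about 1 in 20 groups. The dDAVP libraries of Atp4a had 573.6, 1113, 1119 and 1157 TPM, a gap of 0.925 of the range. The saline libraries of Ckmt1 had 1170, 1436, 1457 and 1486 TPM (0.844), those of Aldoa 4766, 4951, 5134 and 6975 TPM (0.833) and those of Smyd4 11.9, 12.2, 13.0 and 19.7 TPM (0.867). In WT units, Sp1 had 6.32, 6.36, 6.36 and 8.12 TPM (0.980), Atp1b1 1131, 1149, 1150 and 1288 TPM (0.884), Aldh1a1 17.7, 20.4, 24.7 and 66.2 TPM (0.855) and Pitpnm2 1.31, 1.41, 1.51 and 2.75 TPM (0.863). Values are in rank order, not in the order of the replicates.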

How the results depend on the processing

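With the replicate block, 4 genes with a strong promoter peak were called in dDAVP against saline RNA-seq instead of 16. That was 0.17% of them, beside 0.16% of all genes. Leaving out 1 library at a time gave 4 to 20, with the shares given above. Same-numbered dDAVP and saline libraries 1 to 4 had correlations of deviations of 0.19, 0.23, 0.0873 and -0.149, against -0.227 to 0.193 for other pairs. dDAVP libraries 1 to 3 correlated most with the saline library of their number, and dDAVP library 4 with saline library 3. In the β-catenin table same-numbered units had -0.0285 to 0.0397. The labels do not tie a number to an animal, so the main fit did not pair samples, and whether they were paired was not settled. With a pseudocount of 0.1, a TPM minimum of 20, median-of-ratios scaling or placing by a RefSeq start, the counts were 16, 16, 17 and 11. Their shares were 0.70%, 0.71%, 0.74% and 0.51%, beside 0.68%, 0.69%, 0.75% and 0.70% of all genes. Between MT and WT the count was 0 under the replicate block and 0 to 1 with a unit left out. Strong promoter peaks called lower numbered 1913 at the authors' adjusted p of 0.01, or 33.25% of them, beside 2.54% of all peaks. The median Fold was -0.51 for a Conc of 6 or more, -0.48 for 8 or more, -0.62 as the difference of the group signals and -0.33 after subtracting the median of all peaks. The median RNA level was 70.9 TPM in saline libraries, which list only genes above 10 TPM, and 24.5 TPM in WT units. CpG-rich windows were 86.5% for a Conc of 8 or more. Malat1, not called, had log2 fold changes between -0.11 (without saline library 3, limma adjusted p = 0.867) and 0.46 (without saline library 4), against 0.17 with all 8. Saline library 3 had the lowest Malat1 level of its group (4820 TPM) and saline library 4 the highest (15719 TPM). Why these libraries differed was not tested. Alternatives by distance from the start or by the central bases of a peak were not run. Counts of calls with unknown depth carry no counting interval.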
